A study of Strongylocentrotus purpuratus with 2 samples.

Results

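The regions described here were the broad, reproducible stretches of open chromatin outside dense clusters in whole wild-type embryos of the purple sea urchin Strongylocentrotus purpuratus, grown at 15 °C in ASW to 48 hours post fertilization (hpf). ATAC-seq was performed on 2 replicates, which formed the only group, so no contrast between conditions exists. The labels give no treatment, and each replicate has its own list of peaks. Each peak has a start, an end, a summit (its highest base), a fold of reads over background and a −log10 p, all of them the authors' values. Nothing in the labels says whether the replicates came from separate spawnings, so differences between them may be technical in part.

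The intervals of both lists were merged wherever they shared at least 1 bp, which gave 40611 regions, and 18746 of these held a peak of each replicate and were kept. Peaks on the mitochondrial sequence, 5 in replicate 1 and 8 in replicate 2, were left out. A kept region was called broad where it was at least 600 bp wide, was not in a chain of 4 or more kept regions with gaps of at most 5000 bp, and had another kept region within 50000 bp. There were 1282 kept regions of at least 600 bp. Of these, 37 lay in such a chain and 69 had no neighbour, and the remaining 1176 are the broad regions. They made up 6.27% of the kept regions (95% Wilson interval 5.94 to 6.63%) and 12.3% of the bases those cover, 0.811 Mb. They are set beside the 14918 narrower regions, which met both neighbour conditions but were under 600 bp wide. The members were thus chosen by their measured width, by presence in both lists and by distance to neighbours, and these values are described and not tested. All intervals given for shares of regions are 95% Wilson intervals. They cover counting error only, since regions of a library are not independent replicates, and no p-value over regions was computed.

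Open chromatin marks DNA that is not tightly wrapped on nucleosomes and that the transposase Tn5 can reach. Promoters, where transcription starts, and enhancers, which regulate it from a distance, are typically open. An open stretch can hold a single site cleared of nucleosomes or several such sites side by side, and a peak caller may return these as 1 interval or as several. In the sea urchin, many developmental genes are controlled by compact enhancers near the gene, and 48 hpf falls around the end of gastrulation, when gut, skeleton-forming mesenchyme and ectoderm are distinct. The tissues were profiled together, so a region open in few cells and a weakly open region in many cells cannot be told apart. The genome sequence and a gene annotation placed on these sequences were not used here, so the regions are given by position and not by gene, and no sequence is printed.

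Most broad regions were only slightly wider than 600 bp. The median width was 660 bp (quartiles 625 and 718 bp, maximum 1444 bp), against a median of 312 bp in the narrower regions. Widths of 600 to 699 bp were found in 814 broad regions, widths of 700 to 799 bp in 217, widths of 800 to 999 bp in 134, and 11 were 1000 bp or wider. The merged width comes from both lists together. In replicate 1 alone the span from the first to the last peak edge had a median of 621 bp, and in replicate 2 a median of 638 bp. Both lists alone reached 600 bp in 611 of the 1176 broad regions (52.0%, 49.1 to 54.8%). Replicate 1 alone reached it in 168, replicate 2 alone in 299, and neither in 98, where the peaks of the lists were offset. A single peak of at least 600 bp was present in both lists in 334 broad regions, or 28.4%.

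The regions on either side of the 600 bp limit were close in fold, and in replicate 1 they differed more in the number of peaks. The 235 broad regions of 600 to 619 bp had median folds of 9.70 (replicate 1) and 9.44 (replicate 2). The 240 narrower regions of 580 to 599 bp had 9.56 in replicate 1 and 9.52 in replicate 2. More than 1 peak was found in 30.2% of the first set in replicate 1 and 13.6% in replicate 2, against 20% and 11.7% of the second set. The strongest summit lay in the central 20% of the width in 14.9% of the first set in each replicate, against 17.9% of the second set in replicate 1 and 20% in replicate 2. There were 6 broad regions of exactly 600 bp and 11 narrower ones of exactly 599 bp. The first 3 of the 6 in genome order all reached their width only through the merge. On NW_022145606.1, at 35162997 to 35163596, replicate 1 spanned 311 bp and replicate 2 spanned 586 bp. For the first 3 of the 11, folds ran from 5.95 to 8.94 (replicate 1) and 6.36 to 7.97 (replicate 2).

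Broad regions were strongly open. In replicate 1 the median fold of their strongest peak was 9.76 (quartiles 7.91 and 11.9), and in replicate 2 it was 9.64 (quartiles 7.98 and 11.6). The mean of these medians was 9.70 ± 0.0874 (SD, n = 2). In the narrower regions the medians were 6.58 in replicate 1 and 6.59 in replicate 2, a mean of 6.59 ± 0.00758 (SD, n = 2). The gap between the sets exceeded the difference between replicates. Members were chosen by width, which comes from the same pileup as height, so the higher fold is not independent of that choice. In reads at the summit, solved from fold and p, the medians were 34 in replicate 1 and 39 in replicate 2 for broad regions, against 17 and 19 for narrower ones. Nearly all broad regions were well ranked. The strongest peak was among the strongest 10% of its list in 583 broad regions for replicate 1 (49.6%, 46.7 to 52.4%) and 644 for replicate 2 (54.8%, 51.9 to 57.6%), against 13.4% and 14.9% of narrower regions. It lay in the weaker 50% of the list in 25 broad regions for replicate 1 and 5 for replicate 2.

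**Figure D1:**
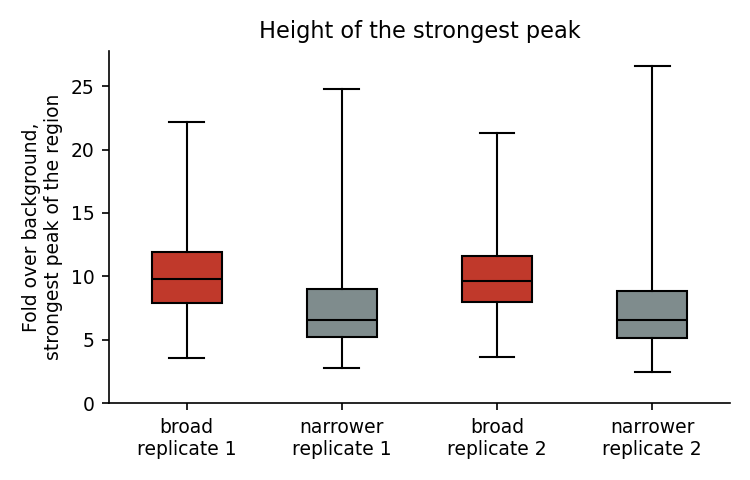
Fold over background of the strongest peak of each region (y axis), by set and replicate (x axis). Boxes span the interquartile range with the median as a line, and whiskers reach the lowest and highest region. Broad regions had medians of 9.76 and 9.64, narrower ones 6.58 and 6.59, while the highest folds, 24.8 in replicate 1 and 26.6 in replicate 2, belonged to narrower regions.

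The single highest folds were not in broad regions, but high folds made up a larger share of the broad set. The highest fold among broad regions was 22.2 in replicate 1 and 21.3 in replicate 2, below the 24.8 and 26.6 reached by narrower regions. The narrower set is larger and so more likely to hold a maximum. By share, 3.32% of broad regions had a fold over 15 in both lists (2.44 to 4.50%), against 1.39% of narrower ones (1.22 to 1.60%). The strongest peak ranked in the top 100 of both lists in 1.36% of broad and 0.248% of narrower regions. Within the broad set, width and fold showed next to no correlation, with Spearman's rho of 0.0048 in replicate 1 and 0.0089 in replicate 2 and Pearson's r of -0.047 and -0.048 over 1176 regions. Within the narrower set rho was 0.51 in replicate 1 and 0.57 in replicate 2, and r was 0.44 and 0.48, over 14918 regions. These correlations are across regions that share 2 libraries, and the lower bound on width limits the range in the broad set. The fold is also taken over a local background, whose median rose with width in both lists. Between replicates the fold of broad regions had a rho of 0.84 and an r of 0.85.

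The share of broad regions grew with the strength of the strongest peak. Broad and narrower regions were ranked together by the mean of their within-list ranks and divided into 5 equal parts. Broad regions made up 22.6% of the strongest part (21.1 to 24.0%), 9.63% of the second (8.66 to 10.7%), 3.54% of the third (2.96 to 4.24%), 0.715% of the fourth and 0.0932% of the weakest. The last 2 parts held 23 and 3 broad regions. Width and height come from the same pileup, so this is not an independent observation on either.

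By mean rank over both lists, the best 10 broad regions came from 7 sequences, with folds of 11.6 to 22.2 in replicate 1 and 11.9 to 20.6 in replicate 2 and with 68 to 101 reads and 78 to 105 reads at the summit. The first, on NW_022145613.1 at 16841184 to 16841861, had folds of 21.03 in replicate 1 and 19.4 in replicate 2, with the summit at base 16841400 in both. Replicate 2 called it as 1 peak of 673 bp, whereas replicate 1 called a peak of 458 bp and beside it a weak one of 106 bp with a fold of 3.60. The second, on NW_022145611.1 at 24992173 to 24992808, also had its summit at the same base in both, 24992595, with folds of 22.2 and 20.6. It spanned 438 bp in replicate 1 and 634 bp in replicate 2. The third, on NW_022145602.1 at 12122152 to 12122763, had folds of 16.8 and 16.9, with summits 77 bp apart. In all 10 the summits of the replicates lay within 87 bp. The fifth, on NW_022145599.1 at 9135630 to 9136241, had the most reads of the 10 in both replicates, 101 and 105. Its folds were the lowest of the 10, 11.6 and 11.9, beside a local background of 7.77 in replicate 1 and 7.94 in replicate 2, the highest of the 10. The first, the fourth and the eighth were split in replicate 1 and whole in replicate 2, and the other 7 were 1 peak in both.

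By fold, the widest broad regions were not the strongest. The 10 widest, 1006 to 1444 bp on 8 sequences, had folds of 5.67 to 11.6 in replicate 1 and 5.84 to 9.94 in replicate 2. They had 21 to 79 reads at the summit in replicate 1 and 26 to 82 in replicate 2. The fold is taken over local background, which was higher in wider regions. Its median was 2.40 in replicate 1 and 2.87 in replicate 2 at 600 to 699 bp, and 3.04 and 3.83 at 800 to 1444 bp. The widest of all lay on NW_022145607.1 at 22320906 to 22322349 and held 2 peaks in each list. In replicate 1 these were 514 bp with a fold of 5.83 and 706 bp with a fold of 8.56. In replicate 2 they were 325 bp with a fold of 6.03 and 956 bp with a fold of 8.06. The stronger summits lay 5 bp apart, at 22321999 in replicate 1 and 22321994 in replicate 2, and the weaker ones at 22321081 and 22321051. Each list thus had its summits in like places, 918 bp apart in replicate 1 and 943 bp in replicate 2. The second widest, on NW_022145602.1 at 26243756 to 26245043, was called as 1 peak in each list, of 1038 bp in replicate 1 and 1288 bp in replicate 2. Its summits lay 221 bp apart and its folds were 8.03 and 7.86. The ninth, on NW_022145605.1 at 3091266 to 3092283, was the strongest by reads, with 79 in replicate 1 and 82 in replicate 2. It was 1 peak in each list, with summits 9 bp apart and folds of 10.8 and 9.94.

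In 2 of the 10 widest regions the replicates placed the strongest summit at opposite ends. On NW_022145602.1, at 12109492 to 12110547, replicate 1 had its strongest summit at 12109693 with a fold of 8.37, and replicate 2 at 12110371 with a fold of 6.32. Each list also held a weaker peak near the other's summit, at 12110286 with a fold of 4.84 in replicate 1 and at 12109664 with a fold of 5.97 in replicate 2. On NW_022145594.1, at 33351416 to 33352508, the strongest summits lay 611 bp apart. Replicate 1 called 1 peak of 1030 bp with its summit at 33352256 and a fold of 9.74. Replicate 2 called 2 peaks, with summits at 33351645 and 33352397 and folds of 8.41 and 6.11.

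A broad region was a single peak in both lists in 666 of 1176 cases (56.6%, 53.8 to 59.4%). Replicate 1 split it into 2 or more peaks in 379 cases (32.2%, 29.6 to 35.0%) and replicate 2 in 180 (15.3%, 13.4 to 17.5%). The mean was 23.8% ± 11.97 (SD, n = 2). In narrower regions the shares were 6.23% in replicate 1 and 4.65% in replicate 2, a mean of 5.44% ± 1.12 (SD, n = 2). Broad regions had the higher share in each list, but the 2 lists differed so much for broad regions that the size of the gap is poorly known. Each peak that the merge joins can add width, so the number of peaks is not independent of the choice of members. Narrower regions of 500 to 599 bp held more than 1 peak in 18.4% of cases in replicate 1 and 11.9% in replicate 2. In replicate 1, 346 broad regions held 2 peaks, 31 held 3 and 2 held 4. In replicate 2, 167 held 2, 13 held 3 and none held 4.

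**Figure D2:**
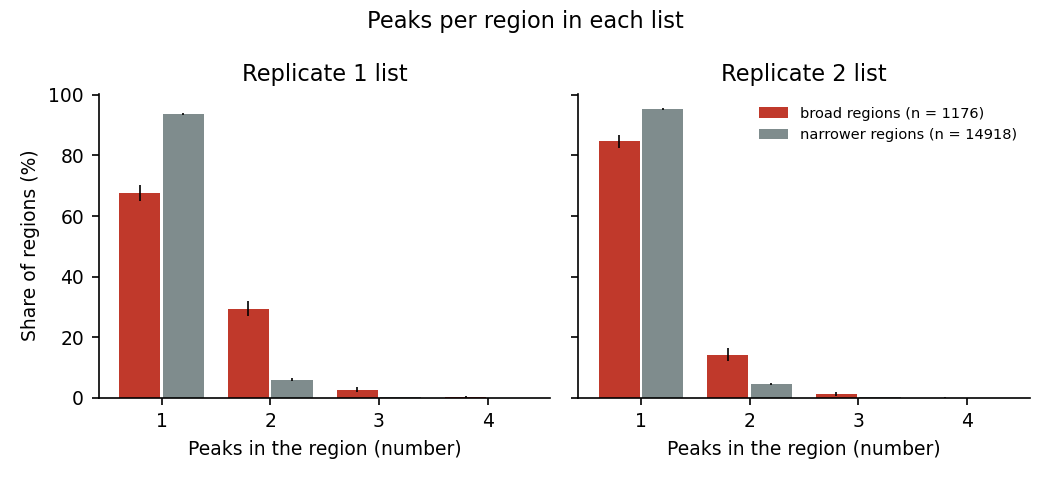
Share of regions (y axis, %) by the number of peaks that a list holds in them (x axis), with replicate 1 in the left panel and replicate 2 in the right, and broad beside narrower regions. Error bars are 95% Wilson intervals. Broad regions held 1 peak in 67.8% of cases in replicate 1 and 84.7% in replicate 2, and 2 peaks in 29.4% and 14.2%.

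Splitting differed between the lists. More than 1 peak was found only in replicate 1 in 330 broad regions, only in replicate 2 in 131, and in both in 49. The most frequent background solved from the lists was 0.671 for replicate 1 and 0.813 for replicate 2, in extended reads, and its part in the splitting was not tested. In narrower regions the numbers were 856, 620 and 74 of 14918. In the strongest of the 5 parts by rank, 26.3% of broad regions in replicate 1 and 11.8% in replicate 2 held more than 1 peak, against 2.53% and 1.81% of narrower regions. In the third part the shares were 48.2% and 21.9%, against 8.25% and 6.12%. Weaker broad regions were therefore split more often in both lists over these parts. The sets differ in width within each part, so their contrast there is not independent of the choice of members either.

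The pieces of a split broad region lay close together. In replicate 1 the gap between neighbouring pieces had a median of 35 bp and a maximum of 362 bp over 414 pairs, and 64.7% of gaps were under 50 bp. In replicate 2 the median was 30 bp and the maximum 178 bp over 193 pairs, and 77.2% were under 50 bp. Their summits lay a median of 336 bp apart in replicate 1 and 333 bp in replicate 2. A spacing of 250 to 449 bp was found in 65.9% of pairs in replicate 1 (61.2 to 70.3%) and 64.2% in replicate 2 (57.3 to 70.7%). The most frequent class of 50 bp was 300 to 349 bp in both lists, with 22.5% of pairs in replicate 1 and 21.2% in replicate 2. The minimum width of the region and the width of the pieces limit these distances, so the spacing is in part fixed by the choice of members. The pieces were unequal, and the weakest had a median of 0.642 times the fold of the strongest in replicate 1 and 0.612 times in replicate 2.

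**Figure D3:**
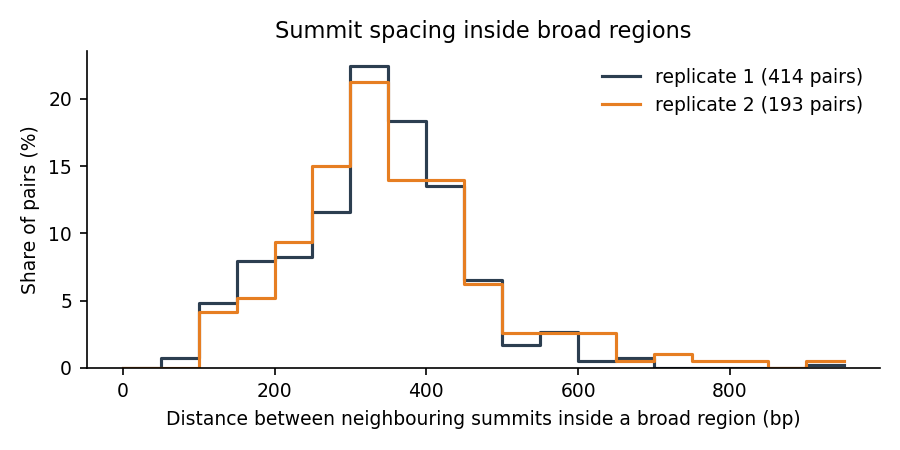
Distance between neighbouring summits of 1 list inside a broad region (x axis, bp, in classes of 50 bp) against the share of such pairs (y axis, %), for 414 pairs of replicate 1 and 193 pairs of replicate 2. Both lists had their mode at 300 to 349 bp.

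Where 1 list had 2 peaks and the other had 1, the lone peak spanned the gap in 302 of 302 regions split in replicate 1 and in 121 of 121 split in replicate 2, as the merge requires. Its summit was free to fall near either piece. It lay nearer to the stronger piece in 241 of the 302 regions (79.8%, 74.9 to 83.9%) and in 98 of the 121 (81.0%, 73.1 to 87.0%). The median distance to the nearer summit was 31 bp in the first set and 28 bp in the second. Both lists held 2 peaks in 41 broad regions. The stronger piece was the same in both lists in 34 of them (82.9%, 68.7 to 91.5%), and in 26 both pairs of summits matched within 100 bp.

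The regions with the most peaks were fragmented in 1 list or in both. The largest number in 1 list was 4, in 2 regions of NW_022145612.1. The first, at 9840109 to 9841013, held peaks of 119, 113, 247 and 335 bp in replicate 1 with folds of 7.16, 6.38, 7.14 and 9.09. Replicate 2 called it as 1 peak of 888 bp with a fold of 11.5, and its summit lay 29 bp from the strongest of the 4. The second, at 21534957 to 21535828, held peaks with folds of 4.504, 6.40, 4.55 and 4.28 in replicate 1 and 1 peak of 829 bp with a fold of 8.03 in replicate 2. The reverse case was on NW_022145595.1 at 24356473 to 24357336, where replicate 1 had 1 peak of 864 bp with a fold of 11.2. Replicate 2 had 3 peaks there, with folds of 5, 6.53 and 11.7, and the strongest summits of the lists lay 2 bp apart. The largest total over both lists was 5 peaks. It was reached with 3 in replicate 1 and 2 in replicate 2 in 5 regions, with 2 and 3 in 3 regions, and with 4 and 1 in the pair on NW_022145612.1. The region on NW_022145598.1 at 16937356 to 16938213 held 3 peaks in replicate 1, with folds of 13.5, 5.83 and 4.08, and 2 in replicate 2, with folds of 11.8 and 3.59.

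The strongest summit of a broad region usually lay off its centre. It fell in the central 20% of the width in 157 of 1176 broad regions in replicate 1 (13.4%, 11.5 to 15.4%) and in 163 in replicate 2 (13.9%, 12.003 to 15.95%). The mean was 13.6% ± 0.361 (SD, n = 2). In narrower regions the shares were 37.2% in replicate 1 and 38.7% in replicate 2, a mean of 37.95% ± 1.019 (SD, n = 2). The difference between the sets was larger than that between replicates. The 2 bands that flank the centre, from 20 to 40% and from 60 to 80% of the width, held 70.4% of the summits of broad regions in replicate 1 and 73.4% in replicate 2, against 55.2% and 54.6% in narrower regions. The summit lay left of the centre, toward the lower coordinate, in 52.6% of broad regions in replicate 1 (49.8 to 55.5%) and 52.5% in replicate 2 (49.6 to 55.3%). The shares of narrower regions were alike, at 52.5% (51.7 to 53.3%) and 52.9% (52.1 to 53.7%), and with more regions their intervals lay above 50%.

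**Figure D4:**
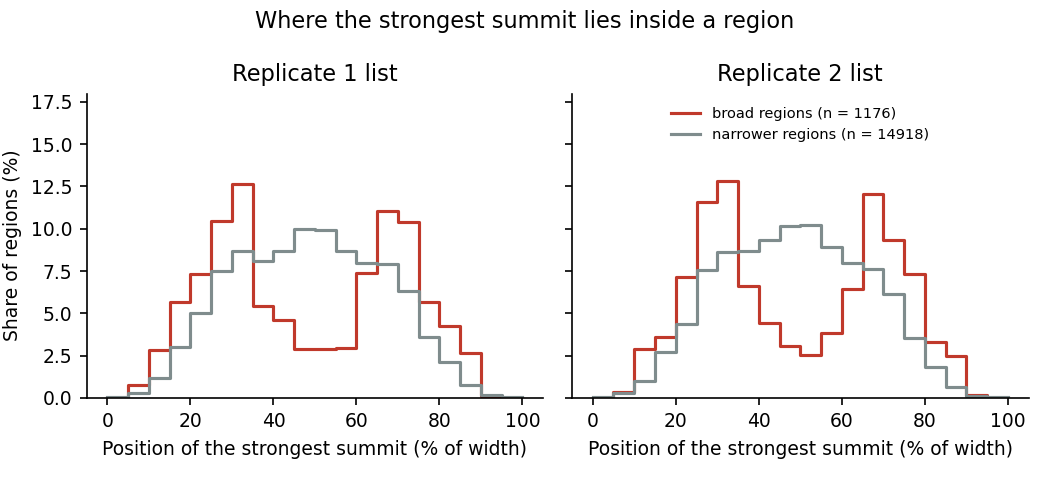
Position of the strongest summit along the region (x axis, % of the width from its lower coordinate, in steps of 5%) against the share of regions (y axis, %), for replicate 1 (left panel) and replicate 2 (right panel). Broad regions had 2 humps and a dip at the centre in both lists, while narrower regions were spread around the centre.

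The replicates placed the summit on the same side of the centre in 952 of the 1176 broad regions (81.0%, 78.6 to 83.1%), against 57.7% of narrower regions (56.9 to 58.5%). Within the narrower set the share rose with width, from 51.1% at 100 to 199 bp to 76.1% at 500 to 599 bp. In broad regions it was 81.3% at 600 to 699 bp, 82.5% at 700 to 799 bp and 76.6% at 800 to 1444 bp. Over the 3 strongest parts by rank the gap between the sets narrowed. In the first the side was the same in 88.4% of broad and 67.3% of narrower regions, and in the second in 73.5% and 62.6%. In the third, with 114 broad regions, the shares were level at 57.9% and 57.99%, and the weakest parts held 23 and 3 broad regions. Where the summit was outside the central 20% in both lists, the side was the same in 83.4% of broad regions (80.9 to 85.6%) and 58.7% of narrower ones (57.6 to 59.9%). A summit close to the centre changes side with a small shift, and in narrower regions the summits lay closer to it, at a median of 42 bp in replicate 1 and 40.5 bp in replicate 2. In broad regions the medians were 136.5 bp and 132.8 bp. Regions that were never split gave a similar picture. Among the 666 broad regions with 1 peak in both lists, the central 20% held 17.4% of summits in replicate 1 (14.7 to 20.5%) and 17.9% in replicate 2 (15.1 to 20.96%), and the side was the same in 82.6% (79.5 to 85.3%). Single peaks were also viewed before any merge, though most of those at least 600 bp wide belonged to broad regions. Such a peak was held by 515 broad regions in replicate 1 and by 781 in replicate 2. The central 20% of the peak's own interval held the summit of 9.61% of the 562 peaks of at least 600 bp in replicate 1 and of 13.2% of the 856 such peaks in replicate 2, clustered and isolated ones included. It held 33.5% and 34.7% of the summits of peaks under 600 bp, but 69.0% and 66.9% for those of 400 bp to under 500 bp.

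Measured in bases, the strongest summit of a broad region lay a median of 204 bp from the nearer edge in replicate 1 and 208 bp in replicate 2, and 473 bp and 470 bp from the farther edge. The distance to the nearer edge varied little with width. Over regions of 400 to 499 bp its medians were 185 bp in replicate 1 and 189 bp in replicate 2, over 600 to 699 bp they were 197 and 201 bp, and over 800 to 1444 bp they were 226 and 224 bp. The medians to the farther edge over the same widths were 257 and 251 bp, then 449 and 444 bp, then 618 and 633 bp. Beyond about 400 bp, the added width thus lay mostly on 1 side of the strongest summit. The central share did not fall steadily with width, since it was 60.4% in replicate 1 and 64.3% in replicate 2 at 400 to 499 bp, but 19.1% and 18.5% at 200 to 299 bp. Off-centre summits were therefore not particular to broad regions.

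**Figure D5:**
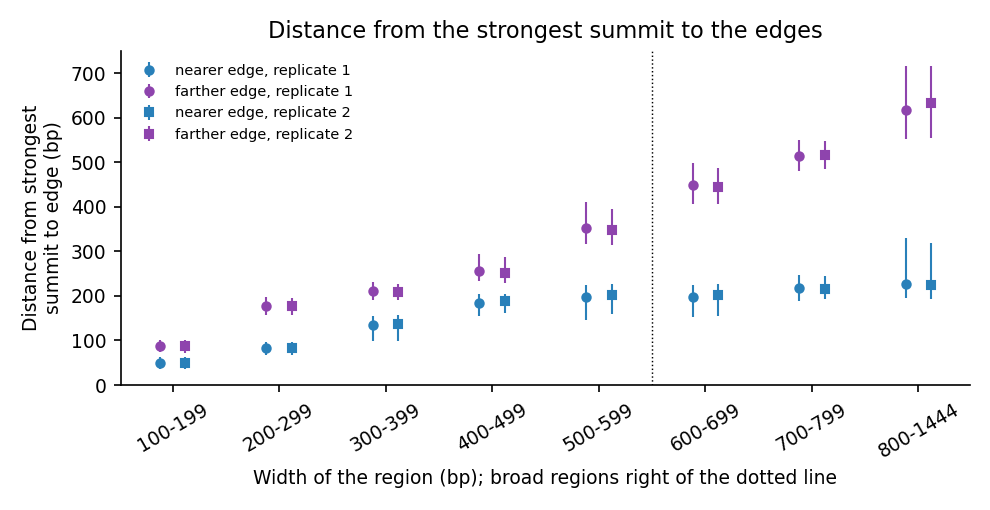
Median distance (y axis, bp) from the strongest summit of a region to its nearer edge (blue) and farther edge (purple), by width of the region (x axis, bp), with bars for the interquartile range, circles for replicate 1 and squares for replicate 2. The nearer edge stayed at medians of 185 to 226 bp from 400 bp of width upward, while the farther edge moved out to 618 bp in replicate 1 and 633 bp in replicate 2.

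The lower central share of broad regions was also found among regions of like strength. In the strongest of the 5 parts by rank, the central 20% held 12.5% of the summits of broad regions in replicate 1 and 14.0% in replicate 2, against 49.7% and 53.0% of narrower ones. In the second part it held 14.2% and 12.3% against 39.7% and 41.9%, and in the third 18.4% and 17.5% against 36.9% and 38.4%. The 2 weakest parts held too few broad regions to compare. The parts match strength but not width. Narrower regions had a median width of 407 bp in the first part, 358 bp in the second and 316 bp in the third. Their central share varied with width, as given above, so these contrasts depend on which widths fill each part.

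Strongest summits within 100 bp of each other were less frequent in broad regions than in all narrower ones together, while summits on the same base were more frequent. The replicates' strongest summits lay within 100 bp of each other in 843 of 1176 broad regions (71.7%, 69.0 to 74.2%), against 81.4% of narrower ones (80.8 to 82.0%). The medians were close, at 40 bp in broad and 36.5 bp in narrower regions, and the first quartiles were 10 and 12 bp. The summits fell on the same base in 37 broad regions (3.15%, 2.29 to 4.31%) and in 260 narrower ones (1.74%, 1.54 to 1.97%). A narrow region leaves less room for summits to differ, so the shares are not on an equal footing. The share within 100 bp was 98.1% in narrower regions of 100 to 199 bp and 68.8% in those of 500 to 599 bp. A lower share was therefore not particular to broad regions. The difference also depended on strength. In the strongest part by rank the share was 82.9% of broad regions (80.01 to 85.5%) and 84.6% of narrower ones (83.1 to 86.0%), with overlapping intervals. In the second part it was 58.4% (52.8 to 63.7%) against 79.7% (78.2 to 81.1%), and in the third 43.0% (34.3 to 52.2%) against 79.4% (78.0 to 80.8%).

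The strongest summits lay more than 250 bp apart in 126 broad regions (10.7%, 9.07 to 12.6%), and in 124 of these they were on opposite sides of the centre. In 58 of the 126 (46.0%, 37.6 to 54.7%), a weaker peak of 1 list had its summit within 100 bp of the strongest summit of the other. In 51 of the 126 each list held 1 peak. These 126 regions were weaker than the 843 with summits within 100 bp. Their median folds were 7.96 (replicate 1) and 7.90 (replicate 2), and those of the 843 were 10.3 and 10.2. Their median summit pileup was 27 and 32 reads, against 37 and 42.

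The share of bases covered by both lists depended on strength. Of the bases that either list covered, 82.5% were covered by both in broad regions and 73.7% in narrower ones. Seen from each list, both covered 93.4% of the bases of replicate 1 and 87.6% of those of replicate 2 in broad regions, a mean of 90.5% ± 4.10 (SD, n = 2), and 87.2% and 82.7% in narrower regions, a mean of 84.95% ± 3.25 (SD, n = 2). The list with more coverage has the lower share, so that SD reflects unequal coverage and is no spread between independent measurements. In the strongest part by rank the shares covered by both were 87.0% in broad and 86.9% in narrower regions. In the second part they were 80.3% in broad and 83.1% in narrower regions, in the third 67.4% and 75.8%, in the fourth 48.5% and 63.8%, and in the weakest 46.5% and 51.3%. Broad regions thus had the lower share in 4 of the 5 parts, but the fourth and the weakest held only 23 and 3 of them. Of the 1176, 726 lay in the strongest part, where the sets were level.

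Broad regions had fewer close neighbours than all narrower ones together, although both sets met the same conditions on neighbours. The nearest kept region lay a median of 8096 bp away from broad regions and 6018 bp from narrower ones. Within the narrower set this median rose with width, from 3892 bp at 100 to 199 bp to 7565 bp at 500 to 599 bp. In broad regions it was 8376.5 bp at 600 to 699 bp, 7065 bp at 700 to 799 bp and 8398 bp at 800 to 1444 bp. The nearest kept region was within 1000 bp of 134 broad regions (11.4%, 9.70 to 13.3%), against 21.2% of narrower ones (20.6 to 21.9%). The shares within 5000 bp were 30.1% (27.5 to 32.8%) and 44.3% (43.5 to 45.1%). They had drawn close by 25000 bp, at 86.0% (83.9 to 87.8%) and 87.8% (87.2 to 88.3%). The lower share within 1000 bp was found in each of the 3 strongest parts by rank, with 9.50% of broad against 19.9% of narrower regions in the first, 13.5% against 21.7% in the second and 16.7% against 23.1% in the third. A neighbour that a peak of the other list joins to a region is part of that region, and joining peaks of 1 list up to 100 bp apart before the merge lowered both shares, to 7.74% of broad and 13.3% of narrower regions.

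The neighbours of broad regions were not themselves broad more often. The nearest kept region was 600 bp or wider for 88 broad regions (7.48%, 6.11 to 9.13%) and for 6.92% of narrower ones (6.52 to 7.34%), and its median width was 324 bp beside broad and 317 bp beside narrower regions. The side of the off-centre summit was also set against that of the neighbour. Where a neighbour lay within 5000 bp and both lists had the summit outside the central 20% on the same side, the summit was on the neighbour's side in 46.8% of broad regions (40.4 to 53.2%) and 52.5% of narrower ones (50.1 to 54.8%). The interval took in 50% for broad regions and lay just above it for narrower ones. Broad regions were spread out, with a median of 149.5 kb to the next one. Another lay within 50000 bp of 274 (23.3%) and within 5000 bp of 20.

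The local background was higher at the strongest summits of broad regions than at those of narrower ones. For broad regions its median, in reads per base, was 2.53 (replicate 1) and 3.08 (replicate 2), against 1.61 and 1.94 for narrower ones, ratios of 1.57 and 1.59. In the strongest part by rank the medians were 2.77 and 3.32, against 2.13 and 2.48. The window behind this background is not given in the sources used here. It may take in reads of the region itself, which were not separated, so the values do not measure the surroundings alone.

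Broad regions occurred on all 21 sequences that held most regions, which had 375 to 1588 broad and narrower regions each, and on 33 sequences in all. On these 21, broad regions were 7.50% of all, with 1164 of the 1176 members. The share was lowest on NW_022145594.1, with 25 of 503 (4.97%, 3.39 to 7.23%), and on NW_022145606.1, with 21 of 375 (5.60%, 3.69 to 8.41%). It was highest on NW_022145603.1, with 51 of 542 (9.41%, 7.23 to 12.2%), and on NW_022145611.1, with 128 of 1394 (9.18%, 7.78 to 10.8%). The intervals of the lowest and the highest just overlap. On 63 other sequences, with at most 31 regions each, 12 of 573 regions were broad (2.09%).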

How the data were processed

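ATAC-seq peaks of 2 replicates of 1 group were used. Bowtie2, SAMtools and MACS2 are named in the submitters' processing notes, while for their versions and settings, the genome build and read filters the sources used here hold no statement. Peak names show that peaks were called per sample. The deposited lists give, per the layout of the files, a fold over background (a ratio) for each peak. They also give a deposited −log10 p, a deposited −log10 q and a display score, which in every row of the authors' lists equals 10 times the −log10 q with its decimals dropped. Starts were counted from 0 in the files and are printed from 1.

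Peaks were merged at an overlap of 1 bp or more, and a region's strongest peak in a list is that with the highest −log10 p. The lists hold 29456 and 32554 peaks and no read totals. The pileup and background behind each peak were solved from fold and −log10 p under a Poisson model, and a solution was accepted within 5e-05 of the −log10 p. The fold was taken as the pileup plus 1 over the background plus 1. It is therefore lower than the plain ratio of reads to background, most of all where the background is low. The scripts for merging, class assignment and pileup were checked on simulated data. Calculations used Python 3.11.15, numpy 2.4.6, pandas 2.3.3, scipy 1.17.1 and matplotlib 3.10.9.

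The members and the measures were chosen with earlier results of these data known. The regions named are the 10 widest, the 10 with the best mean rank over both lists, the 5 with the most peaks, the 5 with the largest difference in number of peaks, and 3 on each side of the 600 bp limit, with ties in genome order. Planned values on gene starts, GC content and motifs were not computed, since no genome and no placed annotation were used. The position of the summit, its side and the distance to neighbours were measures added once the values were known.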

Additional observations from a re-analysis of the deposited data

How the results depend on the processing

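No value here has a test, so one counts as moved when its shift exceeded the replicates' SD, or passed its 95% interval where it has no replicate values. The median width was judged by the SD of the median spans of the lists. The share of bases in both was judged by the SD of the shares seen from each list. These SDs are not spreads of the reported values themselves. A count moved where it changed by more than 1.5 times. Of 114 values under alternative settings, 70 stayed within these limits. A minimum width of 500 bp gave 2535 regions with a median width of 592 bp, a fold of 9.31, 23.3% of summits in the central 20% and 78.3% on the same side. A minimum of 800 bp gave 145 regions with a median width of 871 bp, a fold of 9.26, 63.4% of summits within 100 bp, 19.0% central and 76.6% on the same side. Chains linked at 10000 bp gave a fold of 9.93, 13.2% central and a median gap of 10020.5 bp. A neighbour within 25000 bp gave a fold of 9.59 and a gap of 6671 bp. Peaks limited to a −log10 p of 10 or higher gave a gap of 10997 bp and the better-ranked 50% of each list 10603 bp. A reciprocal overlap of at least 50% gave a fold of 10.02, 76.0% within 100 bp, 15.5% central, 84.1% on the same side and a gap of 8784 bp. Joining neighbours up to 100 bp apart first gave 7.59% with more than 1 peak, which the joining itself brings about, a fold of 9.49 and 12.4% central. The share with more than 1 peak also fell to 12.5% at a −log10 p of 10 or higher and to 14.2% in the better-ranked 50%, against 23.8% as reported, moves of over 1.5 times though within the SD of 11.97. A span of at least 600 bp in both lists, chosen after seeing the data, gave 611 regions with a median width of 702 bp, a fold of 10.1, 88.3% of bases in both, 9.82% central and 83.3% on the same side. A summit distance of 50 bp gave 54.4% and 200 bp gave 87.0%. Each list alone gave 519 to 769 regions, a median width of 649 to 659 bp, folds of 10.05 to 10.5, 9.06 to 13.004% central and gaps of 6581 to 6947 bp. The share with more than 1 peak is then 0 to 0% by construction, and agreement between lists has no value. Apart from settings that change the measure or the members by construction, the cause of a change was not tested. In the 10 alternatives run for both sets, broad regions had the lower central share, the higher share on the same side, the higher median fold and the larger median gap. Values on gene starts, GC content and motifs were not run. At a median of 34 to 39 reads per summit, a short gap inside a region does not show that it was closed. No paired analysis was possible because the embryos form a single group.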

Other observations

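Some broad regions were weak, and these were picked out after their values were seen. In 6 of the 1176 the fold of the strongest peak was under 5 in both lists (0.510%, 0.234 to 1.11%), against 11.8% of narrower regions. Replicate 1 gave them folds of 3.95 to 4.99 and replicate 2 folds of 3.67 to 4.82, with 14 to 34 and 15 to 33 reads at the summit. The summits of the replicates lay 26 to 200 bp apart, and 36.7 to 83.4% of the bases were covered by both lists. One of the 6 lay near the start of its sequence, on NW_022145612.1 at 25950 to 26687, with 738 bp and a gap of 29482 bp to its nearest kept region.

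The closest pair of broad regions, also chosen after the values were seen, lay on NW_022145615.1 with a gap of 34 bp. The first ran from 32802098 to 32802729, with folds of 6.45 (replicate 1) and 7.56 (replicate 2) and summits 1 bp apart. The second ran from 32802764 to 32803387, with folds of 5.08 and 4.48 and summits 139 bp apart. Each list called each of the pair as 1 peak, and both lists had a gap between them. Counted as 1 region they would be wider than all but the widest broad region.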
